A study of Mus musculus with 12 samples.

Results

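The genes described here are Nfil3, Dbp, Tef and Hlf, which encode a bZIP repressor and the 3 PAR bZIP activators that share its binding element. They were taken by name, 4 of the 48440 genes in each of the 12 tables, and all 4 passed the filter on low counts. The samples were livers of male C57BL/6 mice, 8 weeks old, on chow and a 12 h light to 12 h dark cycle. Wild-type mice (WT) and transgenic mice (TG) in which E4BP4, the product of Nfil3, is overexpressed in the liver alone were compared at ZT2 and ZT14. ZT counts hours from lights on, and each of the 4 groups had 3 libraries. The sources used here do not give the promoter, the construct or the founder lines of the transgene. Transgene reads and those of the endogenous gene were not told apart, so Nfil3 values in TG are of all reads counted at the gene. No label states that libraries of a group came from separate animals, so p-values measure the spread between these libraries only.

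E4BP4 and the PAR bZIP proteins DBP, TEF and HLF bind D-box elements as dimers. E4BP4 represses from these sites and the PAR proteins activate. In mouse liver the PAR genes are outputs of the circadian clock, with the E-box activators CLOCK and BMAL1 driving Dbp, while Nfil3 is controlled through elements bound by REV-ERB and ROR receptors. Known D-box outputs include genes of xenobiotic, bile acid and lipid metabolism.

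Libraries held 16035121 to 23981021 total gene reads, each being the sum of exon and intron reads. A gene is compared across libraries in CPM, counts scaled to the library's total of the same read class after TMM scaling. Genes are compared with each other in the authors' deposited RPKM, exon reads scaled to exon length and library total. Replicate 2 of TG at ZT2 and replicate 3 of TG at ZT14 stood apart from the rest, for example with 27.6 and 23.0 CPM of Cyp2a4 against at most 1.39 in the other 10 libraries. The WT libraries were not uniform, as replicate 3 of WT at ZT2 had 473 CPM of Cyp3a11 against 2539 to 5228 in all other libraries. Sums over marker genes are in CPM of library total, without TMM scaling. Hepatocyte markers were present at 61401 to 82477 summed CPM over 6 genes in the 12 libraries. None of the 8 marker lists had a gene at 0 in all libraries, and Eomes and Ly6g had at most 3 reads in any.

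Nfil3 (ENSMUSG00000056749) lies on the minus strand at chr13:52967209-52981073 in GRCm38. GENCODE M21 gives it 1 transcript of 2 exons. Exon 1 (chr13:52980861-52981073) is 213 bases long and holds no coding base, and exon 2 (chr13:52967209-52969021) is 1813 bases long and holds all 1386 coding bases. Dbp (ENSMUSG00000059824) is at chr7:45705088-45710203, Tef (ENSMUSG00000022389) at chr15:81802421-81826861 and Hlf (ENSMUSG00000003949) at chr11:90336536-90390895. The 3′ end of Dbp overlaps Sphk2 on the opposite strand by 737 bases, and the first part of Tef overlaps the antisense gene Gm17597 by 193 bases. Strand use in the counting is not given in the sources used. Sphk2, a sphingosine kinase gene, had 46.3 to 79.3 CPM of library total at ZT2 and 49.2 to 59.8 at ZT14, and Gm17597 had 0 to 9 reads in a library.

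The windows from 250 bases before to 50 after the start of each gene were searched for motifs. This was done because the PAR genes moved together in time and Nfil3 did not move with them. The windows come from RefSeq with build GRCm38.p6, in which Nfil3, Dbp and Hlf have 1 window each and Tef has 2. Capitals mark, on either strand, the E-box CACGTG, the D-box TTATGTAA or TTACGTAA, the ROR element core TAGGTCA and the cAMP element TGACGTCA. The motifs occurred in 7.15%, 1.06%, 2.61% and 1.79% of 32851 promoter windows of this length. No D-box was in any of the windows of the 4 genes. The Dbp window held none of these motifs and is not printed.
Nfil3, chr13:52980990-52981289, minus strand: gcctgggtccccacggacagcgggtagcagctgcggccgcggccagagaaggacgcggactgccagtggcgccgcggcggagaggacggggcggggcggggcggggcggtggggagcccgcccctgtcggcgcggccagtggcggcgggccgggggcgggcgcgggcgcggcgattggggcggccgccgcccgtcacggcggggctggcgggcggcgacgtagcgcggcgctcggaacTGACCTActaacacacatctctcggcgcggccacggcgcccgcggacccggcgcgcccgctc
Tef, chr15:81802423-81802722, plus strand: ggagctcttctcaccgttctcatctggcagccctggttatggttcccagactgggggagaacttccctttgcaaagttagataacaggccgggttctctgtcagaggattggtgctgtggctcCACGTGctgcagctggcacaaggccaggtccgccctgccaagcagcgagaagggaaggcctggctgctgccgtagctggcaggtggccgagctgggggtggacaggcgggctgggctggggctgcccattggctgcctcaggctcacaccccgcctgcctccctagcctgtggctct
Tef, chr15:81811164-81811463, plus strand: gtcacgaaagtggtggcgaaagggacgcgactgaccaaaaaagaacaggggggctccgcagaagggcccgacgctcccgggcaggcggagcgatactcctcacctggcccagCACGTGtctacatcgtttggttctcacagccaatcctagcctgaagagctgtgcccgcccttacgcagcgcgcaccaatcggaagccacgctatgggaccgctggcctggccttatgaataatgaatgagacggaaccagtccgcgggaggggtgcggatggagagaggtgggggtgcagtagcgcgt
Hlf, chr11:90390868-90391167, minus strand: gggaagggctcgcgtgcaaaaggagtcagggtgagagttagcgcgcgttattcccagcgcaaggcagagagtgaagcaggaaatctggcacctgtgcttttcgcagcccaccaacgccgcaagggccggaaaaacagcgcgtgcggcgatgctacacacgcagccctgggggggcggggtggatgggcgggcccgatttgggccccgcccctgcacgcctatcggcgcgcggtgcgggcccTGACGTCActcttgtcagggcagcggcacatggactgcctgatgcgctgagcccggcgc
The Nfil3 window held the ROR element core, read on the opposite strand, 12 bases before the start. Each Tef window held an E-box, 127 and 138 bases before its start. The Hlf window held the cAMP element 9 bases before its start. A match of letters is a description and not a measured binding site.

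Nfil3, the gene named by the transgene, was higher in each TG library than in all 6 WT libraries. In WT at ZT2 it had 48.8, 29.4 and 37.6 CPM, and in TG at ZT2 71.1, 69.8 and 62.6 CPM. At ZT14 the WT libraries had 28.1, 40.4 and 24.6 CPM and the TG libraries 63.8, 93.9 and 77.9 CPM. The groups did not overlap at either time. At ZT14 TG exceeded WT by 1.34 (log2 fold change, SE 0.21), which passed the edgeR quasi-likelihood test (adjusted p = 0.0306). At ZT2 it was 0.81 (SE 0.21) and did not pass (adjusted p = 0.359). The mean of both times was 1.07 (SE 0.15), and it passed (adjusted p = 0.00942 by edgeR). Without both libraries that stood apart neither was called, at 1.34 for ZT14 (adjusted p = 0.145 by edgeR) and 1.07 for the mean (adjusted p = 0.0639). Of all 15244 genes tested, 0.0722% were called at ZT2, 0.0853% at ZT14 and 0.144% on the average. When genotype was permuted within times (exact, 2-sided), Nfil3 reached 0.005, the smallest p available from 400 relabellings. Leaving out any of 8 of the 12 libraries ended the ZT14 call, with adjusted p-values by edgeR from 0.0568 to 0.217, the highest without WT at ZT14 replicate 3. At ZT2 these were WT replicate 3 and every TG library, and at ZT14 replicates 1 and 3 of WT, 2 and 3 of TG.

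**Figure D1:**
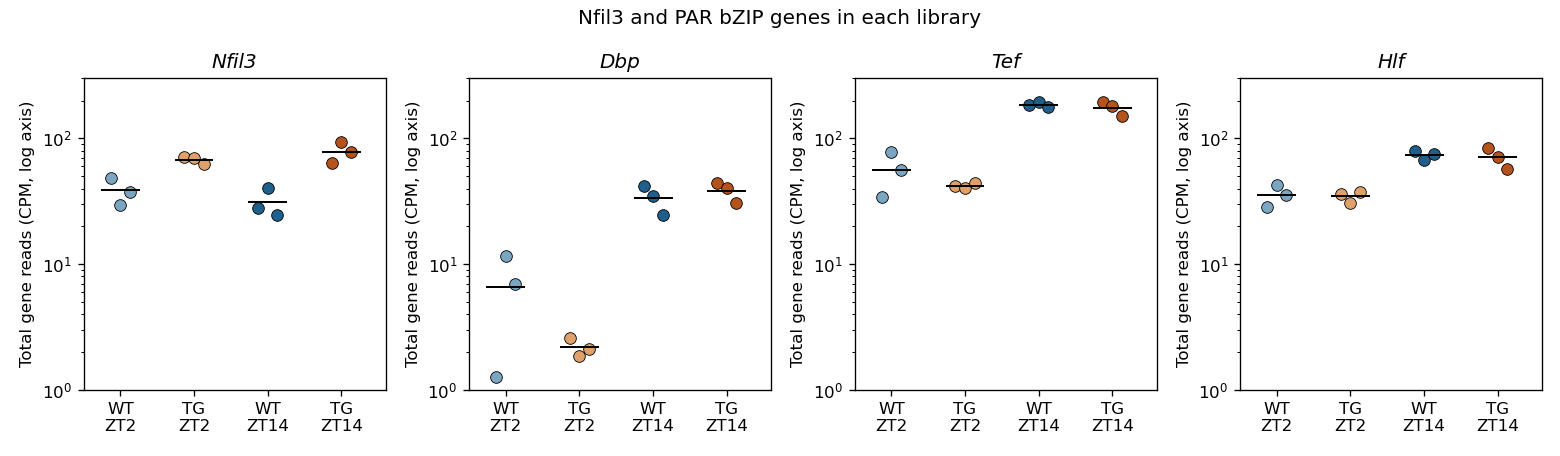
Total gene reads of each gene in every library, in CPM on a log axis, with points for the 3 libraries of a group and a line at their mean. All TG points of Nfil3 lie above all WT points, and Dbp, Tef and Hlf are higher at ZT14 than at ZT2 in both genotypes.

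Most exon reads of Nfil3 did not cross the exon junction in either genotype. At ZT14 exon reads were higher in TG than in WT, while junction and intron reads were not higher on average. In exon reads alone TG exceeded WT by 1.46 at ZT14 (log2, SE 0.21), which passed (adjusted p = 0.0139 by edgeR). The ZT2 value was 0.88 (SE 0.21) and did not (adjusted p = 0.247), and the mean of both, 1.17 (SE 0.15), did (adjusted p = 0.00334). Over all 13185 genes with exon reads, 0.0910% were called at ZT14 and 0.174% on the average. Exon-exon reads, which join exon 1 to exon 2, were not called. Their differences were 0.48 (SE 0.44) at ZT2 and -0.69 (SE 0.46) at ZT14, with adjusted p-values of 0.906 and 0.715 by edgeR. Intron reads were at 0.30 (SE 0.25, adjusted p = 0.720 by edgeR) and -0.44 (SE 0.26, adjusted p = 0.992).

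In raw reads, the 3 TG libraries at ZT14 held 5434 exon reads of Nfil3 of which 49 crossed the junction, and the 3 WT libraries 1904 of which 77 did. At ZT2 the TG libraries held 3318 with 86 across the junction and the WT libraries 1944 with 67. Thus junction reads made up 0.872%, 0.693% and 1.16% of exon reads in TG at ZT14, against 3.41%, 4.62% and 3.82% in WT at ZT14. In TG at ZT2 they made up 3.30%, 1.15% and 3.39%, against 3.90%, 2.02% and 3.68% in WT at ZT2. The genotypes did not overlap at ZT14 and overlapped at ZT2, where TG replicate 2, a library that stood apart, was the low one. Permuting genotype within time (exact, 2-sided) gave p = 0.025 for this share, among 24 permutation tests run on the 4 genes, with no adjustment over them. With each library left out in turn, the mean difference of -1.81 percentage points ranged from -2.11 to -1.45.

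**Figure D2:**
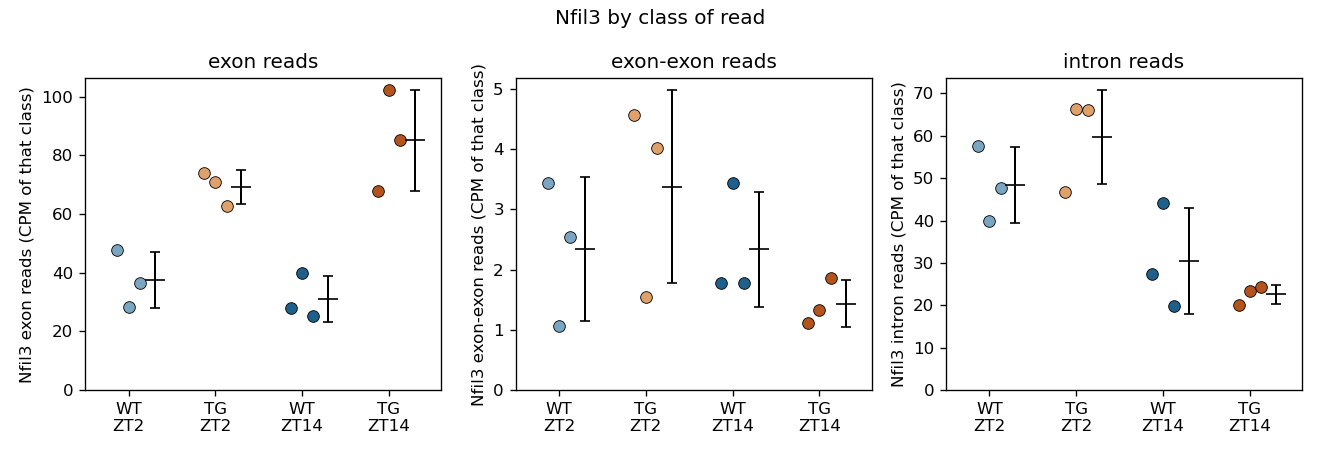
Nfil3 exon, exon-exon and intron reads in each library, in CPM of the respective read class, with points for libraries and a bar for mean and SD (n = 3). TG lies above WT in exon reads at both times, and the genotypes overlap in exon-exon and intron reads.

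Intron reads made up 3.44%, 2.70% and 3.47% of Nfil3 reads in TG at ZT14 and 10.02%, 13.1% and 8.55% in WT at ZT14. At ZT2 the shares were 6.57%, 10.6% and 11.7% in TG and 11.1%, 14.4% and 14.1% in WT. TG at ZT14 was the lowest group, below every library of the other 3. A fit of exon and intron reads together tested whether the classes moved by different amounts. In TG it did not tell transgene reads from those of the endogenous gene. There the exon less intron difference of Nfil3 between genotypes was 1.86 at ZT14 (log2, SE 0.21) and 1.23 on the average (SE 0.15), both called (adjusted p = 0.000368 and 0.000612 by edgeR). At ZT2 it was 0.60 (SE 0.20, adjusted p = 0.333 by edgeR). Of 10782 genes in the fit, 0.0185% were called at ZT14, which are Nfil3 and Gpr137, the latter moving the other way (-2.27). On the average 0.0278% were called. Both Nfil3 calls held with each library left out in turn and with both libraries that stood apart left out, with adjusted p-values up to 0.0103. Without sample as a block they were not called (adjusted p = 0.113 at ZT14 and 0.223 on the average by edgeR).

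**Figure D3:**
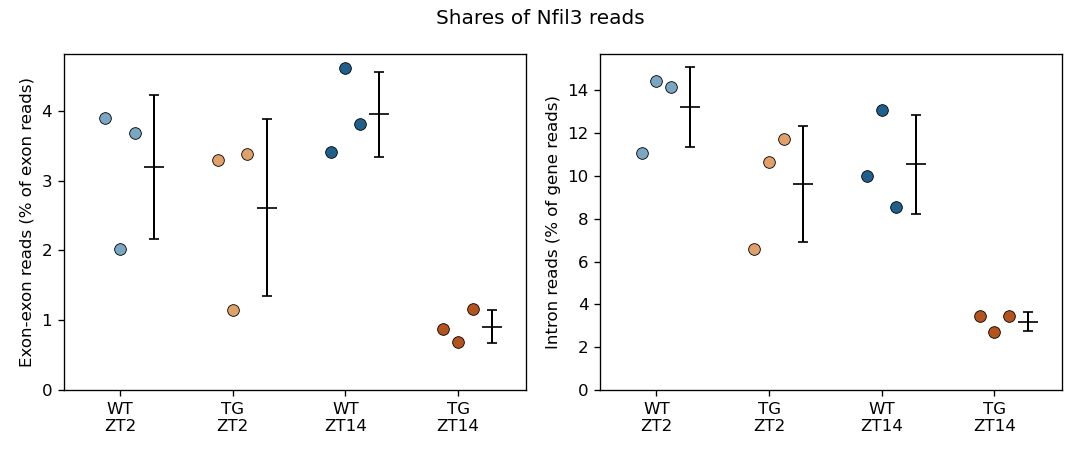
Exon-exon reads as a percentage of Nfil3 exon reads, and intron reads as a percentage of Nfil3 gene reads, with points for libraries and a bar for mean and SD (n = 3). TG at ZT14 is the lowest group in both panels, at 0.909% ± 0.237 and 3.20% ± 0.438.

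Between the times, total Nfil3 reads were not called in WT (log2 fold change of ZT14 against ZT2 of -0.32, SE 0.21, adjusted p = 0.406 by edgeR) or in TG (0.21, SE 0.20, adjusted p = 0.558). Intron reads fell in TG by 1.40 on the log2 scale (SE 0.26, adjusted p = 0.00702 by edgeR). The TG libraries had 46.8, 66.2 and 66.1 CPM of intron reads at ZT2 and 20.1, 23.4 and 24.3 at ZT14, with no overlap. In WT the intron reads were 57.6, 39.8 and 47.6 CPM at ZT2 and 27.4, 44.1 and 19.9 at ZT14, and their change of -0.66 (SE 0.25) was not called (adjusted p = 0.220 by edgeR). Among 12380 genes with intron reads, 1.93% were called in WT and 5.64% in TG. The time difference in total reads did not differ between genotypes past the threshold (interaction 0.53, SE 0.29, adjusted p = 0.873 by edgeR), and that in intron reads gave -0.74 (adjusted p = 0.799).

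Nfil3 is also expressed in lymphoid cells, and fewer or more cells of a type cannot be told apart from RNA per cell in whole liver. Natural killer and innate lymphoid markers summed to 3.11 to 4.55 CPM in WT and 3.45 to 7.93 in TG at ZT2, and to 3.16 to 3.90 and 2.46 to 5.42 at ZT14, over 10 genes. The 8 T and B cell markers summed to 3.73 to 6.80 CPM in WT and 8.36 to 9.89 in TG at ZT2, without overlap, and to 4.24 to 5.95 and 5.36 to 6.69 at ZT14. The 6 stellate cell markers summed to 124 to 160 CPM in WT and 178 to 211 in TG at ZT2, without overlap. At ZT14 they summed to 139 to 148 and 149 to 219. On this scale, without TMM, the groups barely parted at ZT14, with 147.9 the highest WT sum and 148.6 the lowest TG sum. The 6 cholangiocyte markers summed to 35.5 to 92.8 CPM in WT and 58.8 to 84.7 in TG at ZT2, and to 50.7 to 55.2 and 40.7 to 71.6 at ZT14, with overlap at both. Their median log2 difference was 0.65 at ZT2 and -0.06 at ZT14. Sox9, a bile duct transcription factor gene, stood at 0.74 and 0.66 (adjusted p = 0.333 and 0.460 by edgeR). Krt19, a duct keratin gene, stood at 0.86 and 0.05 (adjusted p = 0.538 and 0.977 by edgeR). Krt7, Epcam, Spp1 and Cftr were at 0.86, 0.39, 0.14 and 0.57 at ZT2, and at -0.40, -0.17, -0.26 and 0.74 at ZT14. Of these 4 lists edgeR called no gene for genotype at either time or on the average. Under an unadjusted p of 0.05 were 2 stellate and 2 cholangiocyte markers at ZT2 and 1 of each at ZT14. On the average of both times these were 4 stellate and 2 cholangiocyte markers. Of all genes tested, 7.56% were under it at ZT2, 6.91% at ZT14 and 8.82% on the average. The part of these cell types in the Nfil3 difference was not tested.

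All 3 PAR bZIP genes rose from ZT2 to ZT14 in both genotypes, and none was called for genotype. In the total-read fit 9.17% of genes were called for time in WT and 12.2% in TG. Dbp, a strongly rhythmic activator in mouse liver, had 27, 184 and 134 reads in WT at ZT2 and 921, 818 and 570 in WT at ZT14. In TG it had 45, 34 and 40 reads at ZT2 and 982, 965 and 768 at ZT14. The times did not overlap in either genotype, and WT at ZT2 replicate 1 lay below all 3 TG libraries while the other WT libraries lay above them. Exon-exon reads of Dbp at ZT2 were few, 11, 44 and 16 in WT and 7, 4 and 5 in TG. In CPM of that class these were 1.05, 5.87 and 1.77 against 0.840, 0.478 and 0.573, without overlap but not called by edgeR. Dbp rose by 2.39 (log2, SE 0.47, adjusted p = 0.00698 by edgeR) in WT and by 4.12 (SE 0.53, adjusted p = 0.000465) in TG. Omitting replicate 2 of WT at ZT2 moved the WT value to 3.06.

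The difference between those rises, 1.74 (SE 0.70), had an unadjusted p of 0.0289 and an adjusted p of 0.792 by edgeR, where 0.00656% of genes were called. With each library left out in turn it was never called and ran from 1.06, without WT at ZT2 replicate 2, to 2.25, without WT at ZT2 replicate 1. Dbp in TG less WT was -1.55 (SE 0.56) at ZT2 and 0.19 (SE 0.42) at ZT14, neither called (adjusted p = 0.602 and 0.941 by edgeR). Without WT at ZT2 replicate 1 the ZT2 value was -2.07 and passed (adjusted p = 0.0455 by edgeR). Uniquely mapped reads were 84.8% to 87.9% of Dbp reads at ZT14 and 94.0% to 100% at ZT2.

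Tef, first described as a thyrotroph factor of the pituitary, followed the same course. It had 34.3, 77.7 and 56.5 CPM in WT at ZT2 and 42.2, 40.3 and 44.0 in TG at ZT2. At ZT14 it had 186, 193 and 178 CPM in WT and 196, 180 and 151 in TG. The genotypes overlapped at both times and the times did not overlap. Tef rose by 1.73 (log2, SE 0.21, adjusted p = 0.000403 by edgeR) in WT and by 2.06 (SE 0.22, adjusted p = 0.000119) in TG. TG less WT was -0.41 (SE 0.21) at ZT2 and -0.08 (SE 0.21) at ZT14, neither called (adjusted p = 0.690 and 0.949 by edgeR).

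Hlf, first known as a fusion partner in human leukaemia, had the smallest time difference of the 3. Its libraries had 28.4, 42.3 and 35.5 CPM in WT and 36.4, 30.8 and 37.5 in TG at ZT2. At ZT14 they had 79.8, 67.4 and 75.5 CPM in WT and 84.4, 70.6 and 57.5 in TG. Genotypes overlapped at both times. Hlf rose by 1.07 (log2, SE 0.16, adjusted p = 0.00121 by edgeR) in WT and by 1.02 (SE 0.16, adjusted p = 0.00153) in TG. The genotype differences of -0.02 (SE 0.16) at ZT2 and -0.07 (SE 0.15) at ZT14 were not called (adjusted p = 0.993 and 0.941 by edgeR). In exact permutations of time within genotype Dbp, Tef and Hlf each reached the smallest possible p of 0.005, and Nfil3 gave p = 0.765.

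The exon estimate of the time difference exceeded the intron estimate for Dbp, Tef and Hlf in both genotypes, and a test of exon less intron change passed in 3 of these 6 cases. Intron reads of Dbp rose by 1.97 (log2, SE 0.51, adjusted p = 0.0352 by edgeR) and those of Tef by 1.30 (SE 0.34, adjusted p = 0.0362) in TG. In WT they stood at 0.93 (SE 0.48) and 1.04 (SE 0.33) and were not called (adjusted p = 0.386 and 0.133 by edgeR). Hlf intron reads were not called, at 0.32 (SE 0.29) in WT and 0.08 (SE 0.29) in TG (adjusted p = 0.650 and 0.917 by edgeR). Exon less intron change with time was called for Dbp in WT (1.65, SE 0.29, adjusted p = 0.00837 by edgeR) and in TG (2.60, SE 0.35, adjusted p = 0.000521). Without WT at ZT2 replicate 3 the Dbp value in WT was 1.46 (adjusted p = 0.0586).

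For Hlf the same quantity was called in TG alone of the 2 tests (0.96, SE 0.25, adjusted p = 0.0457 by edgeR, and 0.81, adjusted p = 0.152, in WT), with a difference between genotypes of 0.15 that was not called. Leaving out TG at ZT2 replicate 1 or 3, WT at ZT14 replicate 2 or any TG library at ZT14 ended that call, with values from 0.70 to 1.30 over all 12 omissions. Tef was not called (0.70 in WT and 0.86 in TG, adjusted p = 0.208 and 0.0575 by edgeR), but passed in TG without any 1 of the WT libraries at ZT2 (adjusted p = 0.0236 to 0.0437). Nfil3 was called in TG (1.70, SE 0.20, adjusted p = 0.000216 by edgeR) and not in WT (0.44, adjusted p = 0.412), and the difference between genotypes, 1.26 (SE 0.29), had an unadjusted p of 0.000395 and an adjusted p of 0.841. In this fit 0.946% of genes were called for time in WT and 2.60% in TG. Without a sample block the Dbp and Hlf calls were lost.

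**Figure D4:**
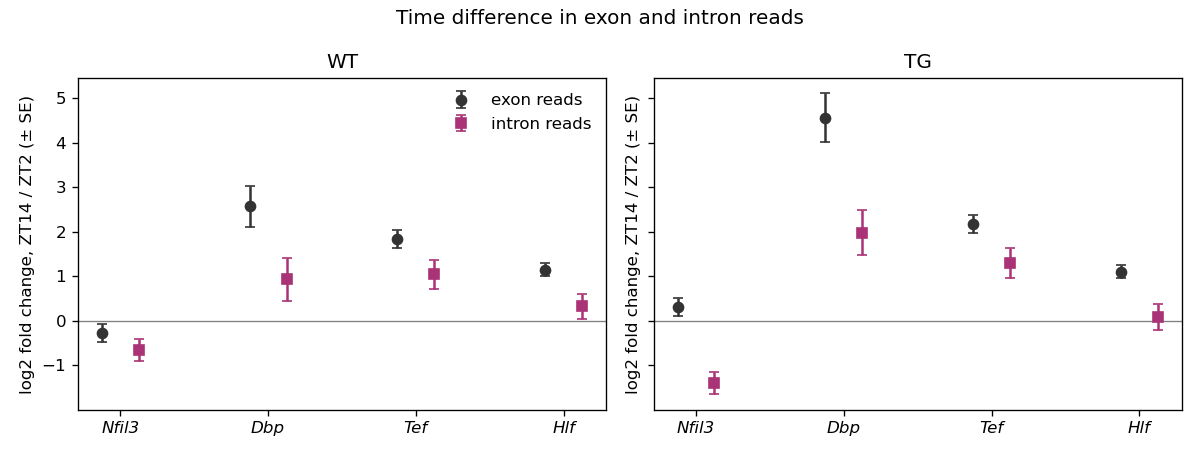
Log2 fold change of ZT14 against ZT2 in exon reads (circles) and intron reads (squares) of each gene, with SE, in WT and TG. Exon values lie above intron values for every gene, and the Nfil3 intron value in TG is the lowest at -1.40.

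Junction shares of the PAR genes did not separate the genotypes. Exact permutations of genotype gave p = 0.395 for Dbp, 0.770 for Tef and 0.490 for Hlf. With time, the Hlf junction share went from 10.2% ± 0.682 to 12.4% ± 0.163 in WT and from 9.75% ± 0.754 to 12.4% ± 0.926 in TG (SD, n = 3, exact permutation p = 0.005). The same exact permutation of time gave p = 0.825 for Dbp, 0.165 for Tef and 0.425 for Nfil3. These are among the 24 tests and were not adjusted over them. The intron share of Dbp was 16.5% ± 5.27 in WT and 33.8% ± 14.4 in TG at ZT2, resting on 3 to 31 intron reads a library, and 6.70% ± 1.25 and 7.57% ± 0.229 at ZT14. Permuting genotype within times (exact, 2-sided) gave p = 0.02 for it, 1 of 24 such tests and not adjusted over them.

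Per length, Nfil3 was the highest of the 4 genes in 3 of the 4 groups. In TG its RPKM is of all exon reads counted at the gene, whether from the transgene or the endogenous gene. The exon length used was 2026 bases for Nfil3, with 1 annotated transcript, and 2993 for Dbp, with 5. It was 7865 bases for Tef, with 10 transcripts, and 6681 for Hlf, with 6. The order of the genes depends on these lengths, and which annotated exons are used in liver was not tested. In WT at ZT2 it had 16.0 ± 4.0 RPKM (SD, n = 3), Tef 5.70 ± 2.08, Hlf 4.52 ± 0.882 and Dbp 1.77 ± 1.42, and Tef and Hlf differed by less than their spread. In TG at ZT2 Nfil3 had 30.1 ± 2.29 RPKM, Hlf 4.51 ± 0.271, Tef 4.31 ± 0.0681 and Dbp 0.490 ± 0.149, with Hlf and Tef again within their spread. In WT at ZT14 the order was Tef at 21.1 ± 0.998 RPKM, Nfil3 at 13.8 ± 3.47, Dbp at 10.6 ± 2.67 and Hlf at 10.4 ± 0.899. The differences between Nfil3 and Dbp and between Dbp and Hlf were within their spread. In TG at ZT14 Nfil3 had 38.3 ± 7.14 RPKM, Tef 20.1 ± 2.40, Dbp 12.1 ± 2.02 and Hlf 10.04 ± 1.89.

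The summed RPKM of Dbp, Tef and Hlf divided by that of Nfil3 was 0.379, 1.34 and 0.762 in WT at ZT2 and 0.294, 0.287 and 0.351 in TG at ZT2. At ZT14 it was 3.64, 2.39 and 3.42 in WT and 1.56, 0.949 and 0.918 in TG. Every TG library lay below every WT library of its time. This ratio is a description of transcript levels, has Nfil3 in its denominator and carries no test. In TG the denominator does not tell transgene reads from those of the endogenous gene. The size of the ratio, also relative to 1, depends on the exon lengths used for each gene. Dbp made up 3.53% to 19.4% of the PAR sum at ZT2 and 20.3% to 29.5% at ZT14.

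**Figure D5:**
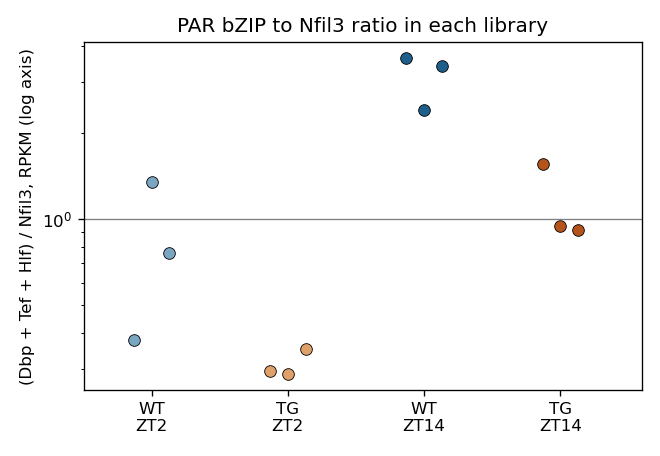
Ratio of summed Dbp, Tef and Hlf RPKM to Nfil3 RPKM in each library, on a log axis with a line at 1. The 3 WT libraries at ZT14 lie between 2.39 and 3.64, and the 3 TG libraries at ZT2 between 0.287 and 0.351.

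Over the 12 libraries, which share the 4 groups, the profiles of Dbp, Tef and Hlf were alike. Pearson's r of log2 CPM was 0.98 between Dbp and Tef, 0.94 between Dbp and Hlf and 0.97 between Tef and Hlf. Genes were ranked among 11909 with a mean of at least 1 CPM, leaving out predicted genes named Gm and a number or ending in Rik. Those nearest to Dbp were Tef, Camta1, Smyd2, Lrp4 and Tmed8 (r from 0.95 to 0.98). Nearest to Tef were Lrp4, Per3, Dbp, Tor1b and Hlf (0.97 to 0.98), and nearest to Hlf were Nfic, Lrp4, Tsku, Fam102a and Pdxk (0.98 to 0.99). Nfil3 stood at r of -0.19, -0.19 and -0.18 with Dbp, Tef and Hlf, and its nearest genes were Tgtp2, Gpr137, Ntrk2, Plcb3 and Sult5a1 (0.85 to 0.91). With group means removed, r between Dbp and Tef was 0.95 and those of Nfil3 with Dbp, Tef and Hlf were -0.51, -0.58 and -0.71. By that measure its nearest genes stood at 0.73 for Tgtp2, -0.02 for Gpr137, 0.38 for Ntrk2, -0.54 for Plcb3 and 0.24 for Sult5a1.

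D-box output genes, a list of 15 of which 14 were tested, were examined because E4BP4 and the PAR proteins bind their elements. For time, edgeR called 7 higher and 0 lower at ZT14 in WT, and 6 higher and 0 lower in TG. Of all 15244 genes tested, 739 were called higher and 659 lower in WT, and 1021 and 841 in TG. The median log2 difference of the D-box outputs was 1.32 and 0.70, against 0.01 over all genes in both. Por, the electron donor of microsomal P450 enzymes, rose by 1.63 in WT and 1.79 in TG (adjusted p = 2.2e-05 and 8.07e-06 by edgeR). Cyp7a1, which starts the classical route from cholesterol to bile acids, rose by 2.37 and 2.28 (adjusted p = 0.00189 and 0.00212). Cyp2a5, Abcb1a and Acot3 also rose in both genotypes, by 2.40, 2.05 and 3.69 in WT and 1.64, 1.11 and 2.47 in TG. Acot4 and Nr1i3 passed in WT (1.18 and 0.86), and Alas1, the rate-limiting enzyme of heme synthesis, in TG (2.95). No difference of these time changes between genotypes was called by edgeR, where 3 of the 14 had an unadjusted p under 0.05, as did 5.98% of all genes tested. Cyp2a4 and Cyp2a5 are near-identical copies, so reads may be split between them.

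For TG against WT, edgeR called 0 of 35 tested genes of the 5 pathway lists (D-box outputs, clock activators, clock repressors, REV-ERB and ROR, and C/EBP genes) at either time. At ZT2 10 of them and at ZT14 4 had an unadjusted p under 0.05, as did 7.56% and 6.91% of all genes tested. DESeq2 called 2 and 1 of them, among 56 and 50 genes in all. The D-box outputs had a median of 0.34 at ZT2 and -0.01 at ZT14, against -0.0030 and 0.0075 over all genes. Abcb1a, a drug efflux pump, was at 0.88 at ZT2 (adjusted p = 0.581 by edgeR), and Cyp2a5 at -0.49 at ZT14 (adjusted p = 0.683). The C/EBP genes, bZIP relatives, had medians of -0.20 and -0.02, with Cebpa at -0.24 (adjusted p = 0.718 by edgeR) at ZT2. Bhlhe41, a clock repressor, was at -1.96 at ZT2 (adjusted p = 0.330 by edgeR) and Nr1d2, a REV-ERB gene, at -0.38 (adjusted p = 0.606). The Bhlhe41 value rests on low levels, 0.724 to 1.58 CPM in WT and 0.267 to 0.346 in TG. At ZT14 Bhlhe41 was at 0.31 (adjusted p = 0.861 by edgeR).

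Clock genes were read beside the PAR genes because the clock drives them. All 3 clock activators fell from ZT2 to ZT14 in both genotypes, with Arntl at -1.22 in WT and -2.02 in TG and Npas2 at -4.05 and -7.48. Of 8 clock repressors 7 were called higher at ZT14 in each genotype, led by Ciart at 5.99 and 6.07 and Per3 at 5.03 and 5.76. In WT the one not called was Bhlhe41, at 1.03 (adjusted p = 0.0923 by edgeR). Among all 15244 genes tested, edgeR called 739 higher and 659 lower in WT, and 1021 and 841 in TG. Nr1d1, a REV-ERB gene, fell by 1.40 and 1.47 on the log2 scale. No C/EBP gene of 6 was called by edgeR in either genotype, where 2 in WT and 4 in TG had an unadjusted p under 0.05, as did 23.2% and 26.3% of all genes tested.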

How the data were processed

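Poly(A) RNA libraries from 850 ng of total RNA were made with a NEBNext Ultra kit, per the labels' protocols. The authors deposited, for each library, counts of total gene, exon, exon-exon, intron and uniquely mapped reads, and RPKM, per the file headers. The submitters' processing notes name mm10 and GRCm38. The sources used here do not give the aligner or strand use. Deposited RPKM served only for levels per length and as an alternative scale, log2(RPKM + 0.1).

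Total gene counts were filtered (filterByExpr, minimum count 10, minimum total 15), scaled by TMM and fitted by edgeR 4.0.16 in R 4.3.3 (glmQLFit, glmQLFTest) to all 12 libraries in 4 groups, with Benjamini-Hochberg adjustment over 15244 genes and calls under 0.05. The same fit was made on each read class. Exon less intron changes came from 24 columns with sample as a block. All 6 contrasts were tested. Exact 2-sided permutations used 400 relabellings. Scripts were tested on simulated data.

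Alternatives were other scalings, filters, read classes, samples and a replicate block, with DESeq2 1.42.0 and limma 3.58.1. Replicate numbers were not taken as pairs. The spread between libraries of a group exceeds counting error and sets the precision. Within groups, counts of any pair of libraries gave chi-square values of 9.53 to 88.9 for each degree of freedom, beyond sampling noise. The members and lists were chosen with earlier results of these data known. Named were all 4 members, called list genes and otherwise those of smallest p (fewer than the rule allows, chosen after values were seen), and the 5 genes most like each member. Permutations of read shares were added after the values were seen. Values of 1 list gene are not reported here.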

Additional observations from a re-analysis of the deposited data

Results flagged for a closer look

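Npas2, a clock activator gene, was flagged because its genotype difference went opposite ways at the 2 times without overlap of libraries. At ZT2 it had 7.47 to 8.94 CPM in WT and 15.6 to 17.1 in TG, and at ZT14 0.299 to 0.591 in WT and 0.0398 to 0.179 in TG. The genotype difference was called by edgeR at neither time, with 1.00 at ZT2 (adjusted p = 0.103) and -2.43 at ZT14 (adjusted p = 0.122). The change from ZT2 to ZT14 was -7.48 in TG and -4.05 in WT, and their difference was -3.43 (log2), with an adjusted p of 0.0519 by edgeR. In 7 of 24 alternatives it passed. These were RLE size factors (adjusted p = 0.0488), DESeq2 (0.000728), no filter beyond 1 read (0.00160), uniquely mapped reads (0.0472), intron reads (0.0124), and leaving out replicate 2 of WT (0.0384) or replicate 1 of TG (0.0193) at ZT14. In the other 17 it did not pass, with adjusted p-values up to 0.794, that of exon-exon reads. Exon reads alone gave -2.26 (adjusted p = 0.772 by edgeR), and the difference ranged from -4.43 to -2.26 over all 24. The ZT14 values rest on a few reads a library.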

How the results depend on the processing

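Nfil3 in TG against WT was called at ZT2 by DESeq2 (0.81, adjusted p = 0.0404) and with no filter beyond 1 read (0.81, adjusted p = 0.0411). At ZT14 it was not called with the 6 samples of the contrast (1.34, adjusted p = 0.15) or without both libraries that stood apart (1.34, adjusted p = 0.145), where the average (1.07) was also lost (adjusted p = 0.0639). No paired reading was made, since same-numbered libraries had correlations of -0.25 to 0.15. With a replicate block Nfil3 at ZT14 was 1.35 (adjusted p = 0.0726), which ended the call, and no other call of a member on total reads changed.

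On intron reads alone Nfil3 was at -0.44 at ZT14, -0.066 on the average, -1.40 between times in TG and -0.74 in the interaction, and on exon-exon reads at -0.69, -0.10, -1.22 and -1.17. On intron reads the time calls of Dbp (0.93), Tef (1.04) and Hlf (0.32) in WT and of Hlf in TG (0.081) were lost. Hlf at ZT2 changed sign with library size alone (0.015), limma-voom (0.00079), intron reads (0.074) and without both libraries that stood apart (0.066), the last also turning Hlf at ZT14 (0.058) and on the average (0.062) and Tef at ZT14 (0.013). The Hlf interaction was 0.024 on exon-exon reads.

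Without a sample block, exon less intron change was not called for Nfil3 at ZT14 (1.90) or on the average (1.24), Dbp in WT (1.64) and TG (2.59), or Hlf in TG (1.02). Tef at ZT14 turned to 0.0035 with at least 10 reads in each class and to 0.052 without both libraries that stood apart, where Hlf on the average was -0.11. Nfil3 for time was 0.060 on log2(RPKM + 0.1).

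Without each library in turn, Nfil3 ranged from 1.19 to 1.58 at ZT14, Dbp from -2.07 to -0.88 at ZT2 and from -0.00025 to 0.37 at ZT14, and Tef from -0.17 to 0.017 at ZT14. Hlf ranged from -0.16 to 0.13 at ZT2, -0.21 to 0.062 at ZT14, -0.12 to 0.030 on the average and -0.20 to 0.084 for the interaction. Exon less intron change ranged for Dbp in WT from 1.46 to 1.77, for Hlf in TG from 0.70 to 1.30 and for Tef in TG from 0.66 to 1.05. For genotype it ranged for Tef from -0.34 to 0.088 at ZT2, -0.068 to 0.054 at ZT14, -0.17 to 0.046 on the average and -0.085 to 0.34 for the interaction, and for Hlf from -0.38 to 0.21, -0.018 to 0.23, -0.14 to 0.15 and -0.12 to 0.49.

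Over all genes, calls numbered 7 to 56 at ZT2, 10 to 50 at ZT14, 12 to 73 on the average, 770 to 1695 for time in WT, 1127 to 2068 in TG and 0 to 22 for the interaction. The causes of these changes were not tested. Low Dbp counts at ZT2 and few Nfil3 junction reads limit precision.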
